A study of Rattus norvegicus with 6 samples.

Results

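The 8 genes described here encode a calcium sensor and the route by which the late distal tubule takes calcium back from the urine. The route has the entry channels Trpv5 and Trpv6 and the calcium-binding proteins Calb1 and S100g. Exit is through the pumps Atp2b1 and Atp2b4 and the sodium-calcium exchanger Slc8a1. The sensor is the calcium-sensing receptor Casr. Probes of the 8 genes were found by the RefSeq accession attached to each array probe, a rule that uses no signal value. All 8 genes had at least 1 probe, 17 probes in all, out of 15284 named genes. Renal cortex RNA was taken from male Sprague-Dawley rats, an outbred stock that had been bought at 5 weeks of age and kept on a basal diet. 3 rats received corn oil, the vehicle, and 3 received tris(2-chloroethyl)phosphate (TCEP), a chlorinated organophosphate flame retardant, at 400 mg/kg/day, both for 4 weeks. Each rat was hybridised to its own single-colour Agilent array, and the comparison asks whether these transcripts differ after TCEP.

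In the distal convoluted and connecting tubule, calcium crosses the cell rather than passing between cells. It enters through the TRPV5 and TRPV6 channels of the luminal membrane, is carried through the cytosol bound to calbindins, and leaves on the blood side through plasma membrane calcium pumps and the sodium-calcium exchanger. Parathyroid hormone and active vitamin D are known to raise the expression of this machinery, and the calcium-sensing receptor, best known in the kidney from the thick ascending limb, reports the calcium level outside the cell.

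Trpv5 and Trpv6 are neighbours on rat chromosome 4, with 0 annotated genes between them, and their upstream sequences are shown because active vitamin D acts on such genes through the vitamin D receptor. The receptor binds pairs of short half-sites. Both strands of the 250 bases before each RefSeq start (build GRCr8) were searched for the half-sites AGGTCA or GGGTCA or AGTTCA or GGTTCA, and matches are in capitals. The Trpv5 stretch lies at chr4:71529383-71529632 and the Trpv6 stretch at chr4:71489668-71489917, both on the minus strand and printed 5′ to 3′ along the gene.
Trpv5: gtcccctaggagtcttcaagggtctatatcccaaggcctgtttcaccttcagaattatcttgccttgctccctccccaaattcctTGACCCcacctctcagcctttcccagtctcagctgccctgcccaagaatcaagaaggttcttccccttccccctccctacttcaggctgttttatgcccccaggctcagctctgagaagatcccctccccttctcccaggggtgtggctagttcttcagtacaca
Trpv6: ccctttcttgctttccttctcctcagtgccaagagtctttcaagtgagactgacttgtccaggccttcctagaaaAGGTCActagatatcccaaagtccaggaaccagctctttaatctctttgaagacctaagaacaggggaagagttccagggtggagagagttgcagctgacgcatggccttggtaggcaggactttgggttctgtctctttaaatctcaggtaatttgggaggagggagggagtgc
Each held 1 half-site, in Trpv5 at -165 to -160 on the opposite strand (GGGTCA) and in Trpv6 at -175 to -170 on the strand of the gene (AGGTCA). A half-site was present in 39.1% of the 33469 upstream sequences of the same length. A pair of half-sites 3 bases apart was in neither, and in 0.0926% of all. A match is a description of the letters and not of binding. Upstream sequences were at hand for 6 of the 8 members. Casr also held 1 half-site, and Atp2b1, Atp2b4 and Slc8a1 held 0.

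On each array 67.2% to 69.3% of the non-control probes passed the scanner software's test of being well above background, and the 75th percentile of signal lay between 966 and 1078 intensity units. Levels below are log2 signals minus the log2 75th percentile of the same array. Differences are TCEP minus vehicle on that log2 scale, and values after ± are SDs over 3 arrays. Probes differ in how well they bind, so levels are not compared between genes. All vehicle arrays shared 1 slide and scan and all TCEP arrays another, so treatment and slide cannot be told apart in any difference given. In whole cortex RNA, fewer distal tubule cells and less RNA per cell cannot be told apart either.

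Of the 7 members bright enough to test, 6 had lower and 1 had higher means in TCEP-treated cortex, and none passed the threshold over all genes. Of all genes tested 52.5% had higher means, and the members' count of directions was not tested against this share. With limma and Benjamini-Hochberg adjustment over 11804 genes, 0 members and 0 genes (0%) had an adjusted p under 0.05, and the members' adjusted p ran from 0.535 to 0.947. At an unadjusted p under 0.05 there were 2 members, Trpv5 and Calb1, both lower with TCEP, against 983 genes (8.33%), of which 486 (4.12% of those tested) were lower. The higher share of those 983 was 50.6%, and it was 69.6% of 869 genes without scaling between arrays. For the same 2 members every TCEP array lay below every vehicle array, a separation seen in 15.6% of all genes in either direction and in 6.97% in that direction. With 7 members tested, 2 is too few to set apart from those shares. The median difference of the 7 was -0.23, beside 0.01 over all genes tested.

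**Figure D1:**
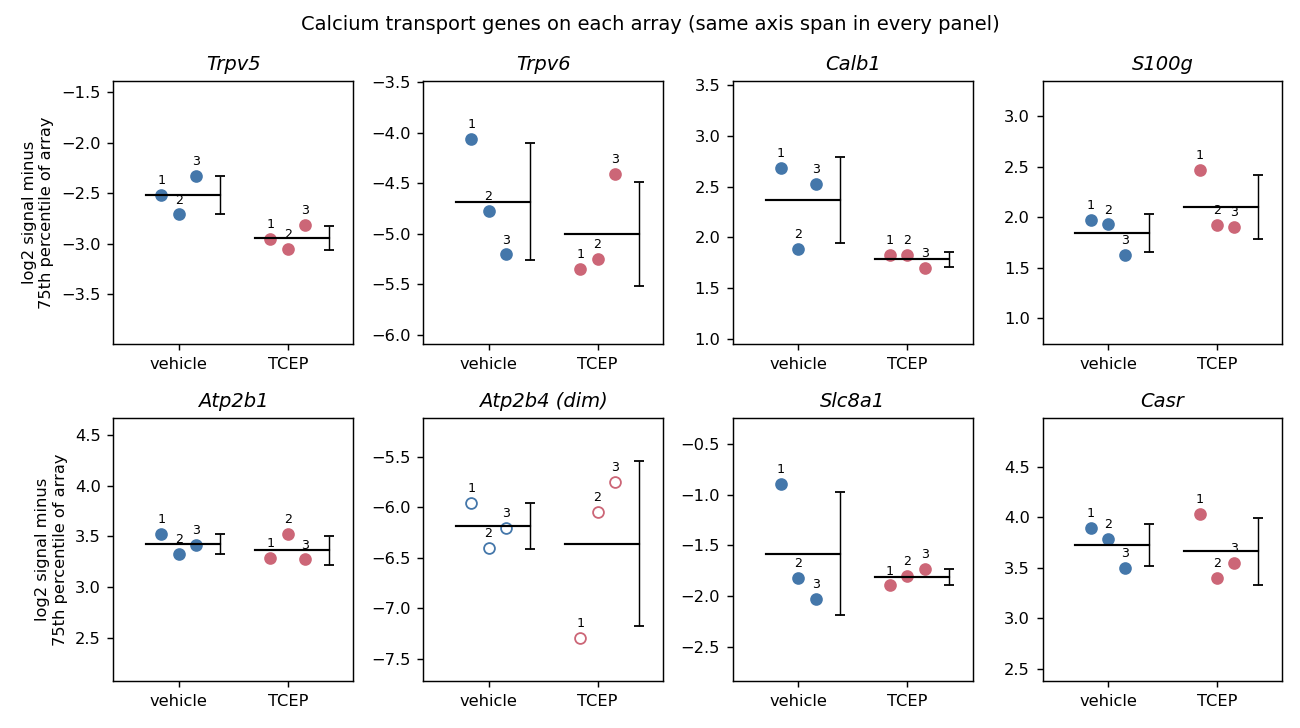
Level of each of the 8 genes on each array (y axis, log2 signal minus the array's 75th percentile) in vehicle and TCEP rats (x axis), with replicate numbers above the points. Horizontal lines are group means and bars are SDs over 3 arrays. Open circles mark Atp2b4, which was well above background on 1 of 6 arrays. Trpv5 and Calb1 are the genes whose groups do not overlap.

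Trpv5, the channel through which most distal calcium entry is thought to occur, was at -2.52, -2.71 and -2.33 in vehicle replicates 1, 2 and 3 and at -2.95, -3.05 and -2.81 in TCEP replicates 1, 2 and 3. The groups did not overlap, and a gap of 0.10 separated the lowest vehicle array from the highest TCEP array. Group means were -2.52 ± 0.19 and -2.94 ± 0.12, a difference of -0.42 (SE 0.12, 95% confidence interval -0.72 to -0.13), or 0.747 of the vehicle level (limma adjusted p = 0.535). A dimmer probe of the gene was lower too, by -0.54 (SE 0.22), but its groups overlapped, since TCEP replicate 3 at -4.07 lay above vehicle replicate 3 at -4.10.

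Trpv6, the closely related channel better known from the intestine, was dim, with signals of 25.6 to 57.7 units where the dimmest probes well above background were at 15.0 to 18.4 units. Its levels were -4.07, -4.77 and -5.20 in vehicle and -5.35, -5.24 and -4.41 in TCEP arrays. Arrays within a group spread over 2.20-fold in vehicle and 1.92-fold in TCEP, and the groups overlapped widely. The difference was -0.32 (SE 0.37, interval -1.23 to 0.59, limma adjusted p = 0.843) and was -0.01 without vehicle replicate 1. The interval spans more than a halving and a rise of 0.59, so these arrays do not settle the sign for Trpv6.

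Calb1, the larger calbindin and the main cytosolic calcium carrier of the distal tubule, had the most negative difference of the members tested. It was at 2.69, 1.88 and 2.53 in vehicle and at 1.82, 1.83 and 1.69 in TCEP arrays. The TCEP arrays lay close together, within a range of 0.14, while vehicle replicate 2 sat far below the other two vehicle arrays and only 0.05 above the highest TCEP array. Means were 2.37 ± 0.43 and 1.78 ± 0.08, a difference of -0.58 (SE 0.21, interval -1.11 to -0.06), or 0.667 of the vehicle level (limma adjusted p = 0.566). Leaving out vehicle replicate 2 gave -0.83 (limma adjusted p = 0.271) and leaving out vehicle replicate 1 gave -0.42.

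S100g, the smaller calbindin, was the member with a higher mean. It was at 1.98, 1.93 and 1.63 in vehicle and 2.46, 1.92 and 1.90 in TCEP arrays, so that 2 TCEP arrays lay inside the vehicle range and TCEP replicate 1 lay above it. The difference was 0.25 (SE 0.18, interval -0.20 to 0.70, limma adjusted p = 0.746), and 0.07 without TCEP replicate 1. Both calbindin genes were bright, but their means differed in opposite directions. Taken within each array and set to 0 at the vehicle mean, Calb1 minus S100g was 0.19, -0.57 and 0.38 in vehicle and -1.16, -0.62 and -0.73 in TCEP arrays. This pair was picked after its values were seen and was not tested, and vehicle replicate 2 again lay next to the TCEP arrays.

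On the exit side, Atp2b1, the widely expressed plasma membrane calcium pump, was at 3.52, 3.33 and 3.41 in vehicle and 3.28, 3.53 and 3.27 in TCEP arrays. The groups overlapped, and the difference of -0.06 (SE 0.10) had an interval of -0.30 to 0.18 (limma adjusted p = 0.889). This was the narrowest interval of the 7 members tested. Its other 3 probes gave -0.07, -0.06 and 0.05, so probes of the gene disagreed in sign around 0.

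Atp2b4, another pump of the same family, was not tested. Its brighter probe was well above background on TCEP replicate 3 alone, with signals of 11.5 to 15.6 units in vehicle and 6.90 to 18.0 units in TCEP arrays. Its other probe was well above background on 0 arrays. No fold is given for it.

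Slc8a1, the sodium-calcium exchanger of the basolateral membrane, was at -0.89, -1.83 and -2.03 in vehicle and -1.90, -1.80 and -1.73 in TCEP arrays. Vehicle replicate 1 stood apart, and the TCEP arrays lay close together, 1 between the other vehicle arrays and 2 just above them. The difference was -0.23 (SE 0.29, interval -0.95 to 0.49, limma adjusted p = 0.856). For this probe, the brightest, it turned to 0.12 without vehicle replicate 1. The other 3 probes of the gene gave -0.25 to -0.34, each with overlapping groups. On those probes TCEP replicate 1 was the lowest array and vehicle replicate 1 or 3 the highest. Vehicle replicate 3, the lowest array on the brightest probe, was at -1.91, -2.05 and -2.24 there, above every TCEP array. Arrays were left out with the brightest probe alone.

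Casr was bright and nearly level. It was at 3.89, 3.78 and 3.50 in vehicle and 4.04, 3.40 and 3.54 in TCEP arrays, with the highest and the lowest array both in the TCEP group. The difference was -0.06 (SE 0.19, interval -0.54 to 0.41, limma adjusted p = 0.947), and -0.13 for its second probe. Its sign was positive without vehicle replicate 1 (0.02), without TCEP replicate 2 (0.07) and with another background correction (0.0034).

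**Figure D2:**
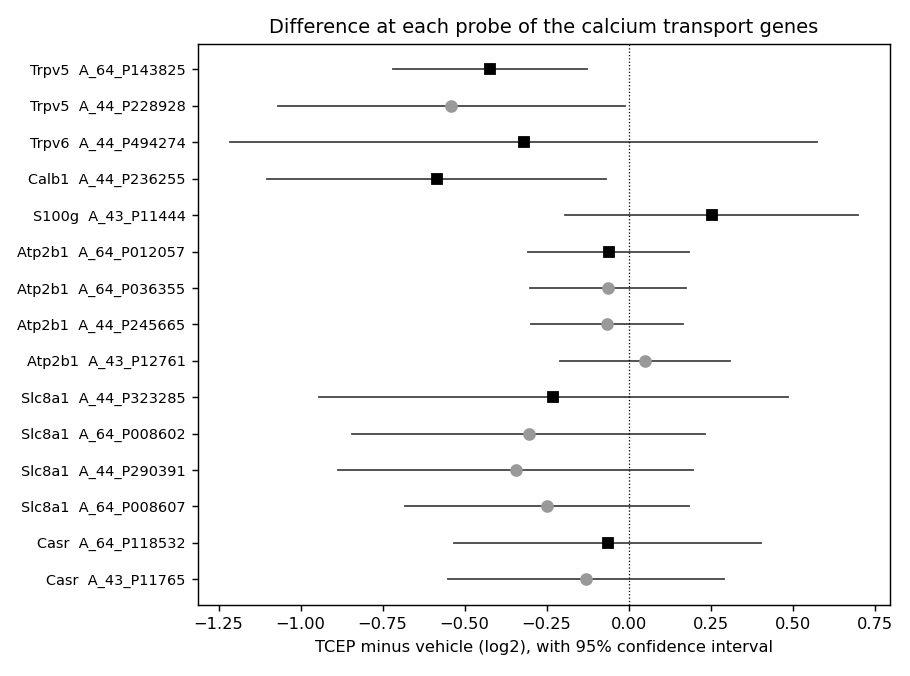
TCEP minus vehicle (x axis, log2) for the 15 tested probes of the 7 tested genes (y axis), with 95% confidence intervals from limma fitted over 41040 probes. Black squares are the brightest probe of each gene and grey circles the others. 13 of the 15 probes lie below 0, and the intervals of both Trpv5 probes and of Calb1 lie wholly below it.

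Across probes, 13 of the 15 tested were lower and 2 higher with TCEP. The share of all tested probes that were higher was not computed. Over genes, each read from 1 probe, it was 52.5%. An unadjusted limma p under 0.05 was found for 3 (both Trpv5 probes and Calb1), against 8.32% of all 41040 probes tested. Groups did not overlap at 2 of the 15, against 15.3% of all probes. After adjustment over those probes 0 passed. Probes of 1 gene read the same transcripts, so these are not independent counts.

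Spread between arrays, with 1 array per animal, was larger for most members than for a typical gene, whose SD within groups was 0.13. It holds measurement noise as well as differences between animals. Trpv6 (0.55), Slc8a1 (0.43) and Calb1 (0.31) had the largest values of the 7, above those of 95.7%, 92.9% and 84.7% of tested genes. Trpv6 was near background, and the Slc8a1 value is that of its brightest probe. The other Slc8a1 probes had group SDs of 0.19 to 0.39. Trpv5 (0.16) and Atp2b1 (0.12) lay near the middle.

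Other genes of the distal convoluted and connecting tubule were compared to see whether the members differed by more or less than these did. In whole cortex RNA this is no comparison within the same cells for the widely expressed Atp2b1 or for Casr. Of 10 markers listed, 7 had a probe and 5 were tested, all with lower means in TCEP arrays and overlapping groups (median -0.10), and 0 had an unadjusted p under 0.05. Slc12a3, the thiazide-sensitive sodium chloride cotransporter that defines the distal convoluted tubule, was at 4.63, 3.86 and 4.24 in vehicle and 3.74, 3.94 and 4.03 in TCEP arrays, and its difference was -0.34 (SE 0.20). As for Calb1, vehicle replicate 1 was highest and vehicle replicate 2 lay within or close to the TCEP range. Klk1, which encodes tissue kallikrein, differed by -0.17 (SE 0.13), the potassium channel gene Kcnj16 by -0.10 (SE 0.12), and Tfap2b, a distal transcription factor, by -0.02 (SE 0.26). The summed signal of the 5, in multiples of the 75th percentile, was 152 to 199 in vehicle and 149.7 to 178 in TCEP arrays. The defining markers Pvalb and Kcnj10 were well above background on 1 array each, and Trpm6, Klhl3 and Emx1 are not analysed here.

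**Figure D3:**
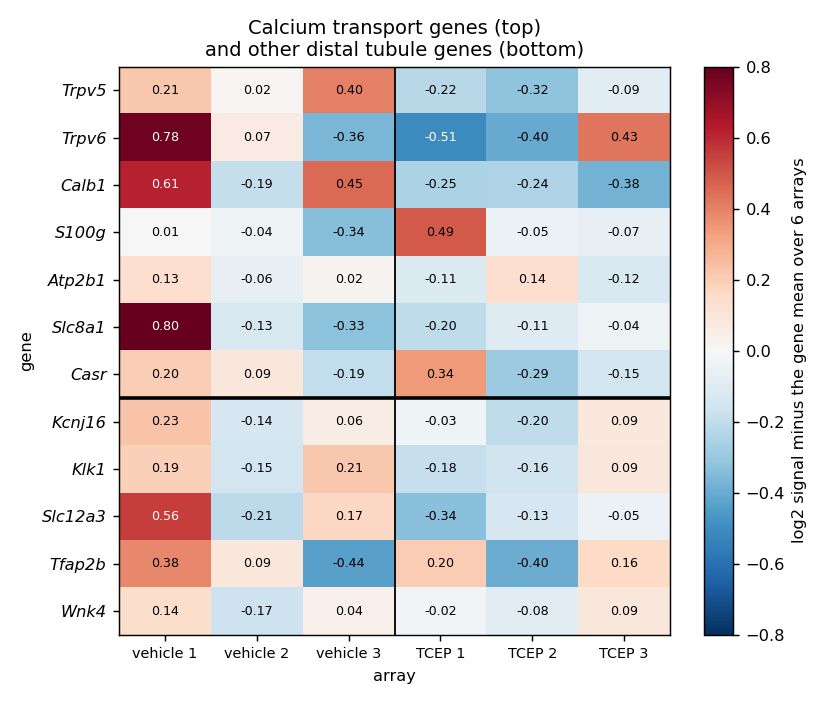
Log2 signal minus the mean of the gene over 6 arrays (colour and printed value) for the 7 tested calcium transport genes (top) and 5 other distal tubule genes (bottom) on each array (x axis). Vehicle replicate 1 is the highest array for Calb1, Slc8a1, Trpv6 and Slc12a3, and vehicle replicate 2 is near or below 0 for Trpv5, Calb1 and Slc12a3.

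Relative to the mean of those 5 markers on the same array, with the vehicle mean set to 0, Trpv5 was at -0.23, -0.01 and 0.25 in vehicle and at -0.30, -0.27 and -0.31 in TCEP arrays. The groups did not overlap. The difference of -0.29 had a two-sided exact permutation p of 0.1, the smallest that 3 against 3 arrays allow (0.467 adjusted over 7 members by Benjamini-Hochberg). Calb1 differed from the marker mean by -0.46 (exact permutation p = 0.2) and S100g by 0.38 (exact permutation p = 0.2), both with overlapping groups. For Trpv6, Slc8a1, Atp2b1 and Casr the differences were -0.19, -0.10, 0.07 and 0.07, with exact permutation p of 0.7 to 0.9. Including the dim Pvalb and Kcnj10 in the marker mean turned the Trpv5, Trpv6 and Slc8a1 differences to 0.02, 0.12 and 0.21, left -0.14 for Calb1, and gave 0.70 for S100g, 0.38 for Atp2b1 and 0.38 for Casr.

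Markers of other cell types were set beside these values. In the intercalated cells, which lie among the connecting tubule cells, 6 of 7 markers were lower, each with an unadjusted p under 0.05 and without overlap between groups (4.12% and 6.97% of all genes in that direction), with a median of -0.29 and summed signals of 146.6 to 161 in vehicle and 116 to 134 in TCEP arrays. In the principal cells 6 of 6 tested of 7 were lower (median -0.23), with sums of 131 to 214 and 151 to 161 and vehicle replicate 2 the lowest array. Like every gene tested, by the filter used, their tested markers were well above background on at least 1 whole group, and Fxyd4 is not analysed here. Thick ascending limb (4 of 6 lower, median -0.07) and proximal tubule markers (3 of 7 lower, median 0.03) had overlapping sums. Such sums weigh the brightest probes most. Podocyte markers were lower in 6 of 6 (median -0.22), macrophage markers in 6 of 6 (-0.14), endothelial markers in 4 of 6 (-0.05), mural and fibroblast markers in 4 of 7 (-0.07) and neutrophil and erythroid markers in 3 of 4 tested (-0.62), all with overlapping sums. The neutrophil and erythroid sums spread widely in vehicle, from 1.61 to 4.88 with replicate 2 highest, and ran from 1.68 to 2.18 in TCEP arrays. Groups did not overlap for 2 thick limb and 1 podocyte marker, all lower, and 1 proximal and 1 mural or fibroblast marker, both higher. An unadjusted limma p under 0.05 was reached by 1 principal and 1 thick limb marker, both lower. It was also reached by 1 proximal and 1 mural or fibroblast marker, both higher. Over all genes tested these shares were 15.6% and 8.33%, and 52.5% were higher. None of the markers of these cell types passed the adjusted threshold, and their part in the member values was not tested.

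Of the partners that hold or move the TRPV channels at the membrane, 7 of 11 tested were higher and 4 lower, with 0 at an unadjusted p under 0.05 and a median of 0.02. The channel-binding Bspry differed by -0.12 (SE 0.07), Nipsnap1 by 0.13 (SE 0.09), the scaffold gene Nherf2 by -0.23 (SE 0.17) and the kinase gene Sgk1 by -0.59 (SE 0.47), whose levels ranged from 2.00 to 3.80 in TCEP arrays alone. S100a10 and Anxa2, which form the complex that carries the channels to the surface, differed by -0.07 (SE 0.11) and 0.07 (SE 0.14).

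The hormone side of the pathway was measured in all 11 listed genes, of which 4 were higher and 7 lower, again with 0 at an unadjusted p under 0.05 and a median of -0.04. The vitamin D receptor gene Vdr was at 0.28, 0.05 and -0.30 in vehicle and -0.23, -0.15 and -0.32 in TCEP arrays, and its difference was -0.24 (SE 0.15). Cyp24a1, which degrades active vitamin D and is a classic target of its receptor, ranged from -0.56 to 1.99 in vehicle and from 0.15 to 1.29 in TCEP arrays. Its difference of -0.36 (SE 0.72) was smaller than the spread between arrays. Cyp27b1, which makes the active hormone, differed by 0.14 (SE 0.34), the parathyroid hormone receptor gene Pth1r by -0.04 (SE 0.13), and Kl, which encodes klotho, by -0.05 (SE 0.12). The calcitonin receptor gene Calcr differed by -0.23 (SE 0.11), without overlap between groups. The oestrogen receptor gene Esr1, with low levels of -4.45 to -3.53, differed by 0.41 (SE 0.21) with overlapping groups.

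Among 8 tested of 10 other calcium pumps and exchangers, 4 were higher and 4 lower (median -0.005). Atp2b2, a plasma membrane pump best known from neurons and hair cells, was the only one of them at an unadjusted p under 0.05, with a difference of -0.29 (SE 0.11) and overlapping groups, and the pump gene of the endoplasmic reticulum, Atp2a2, differed by 0.07 (SE 0.07).

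Genes of the paracellular route, by which calcium passes between cells in earlier segments, were higher in 5 of 7 tested and lower in 2 (median 0.07). Kcnj1, the potassium channel that sustains the voltage for this route in the thick ascending limb, differed by -0.32 (SE 0.09) with no overlap, and Cldn10 by 0.25 (SE 0.11), also with no overlap. Cldn14, a claudin known as a target of calcium-sensing receptor signalling, was at -3.39, -3.32 and -5.73 in vehicle and -0.74, -3.63 and -4.24 in TCEP arrays. Its high array was TCEP replicate 1, also the highest for Casr and S100g, and likewise for Cldn16, Anxa2 and Esr1. A link between these genes was not tested. The Cldn14 difference of 1.28 had an interval of -1.43 to 3.98. Its vehicle replicate 3, at -5.73, lay below the dimmest array of Trpv6 (-5.35), a gene near background. Cldn16 and Cldn19, which form the calcium and magnesium pore, differed by 0.02 (SE 0.14) and -0.01 (SE 0.22).

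The genes most like Trpv5 over the 6 arrays were chosen by the root-mean-square difference of log2 values, each centred on its own mean. They were Prg4 (0.05), Tmem45b (0.06), the prostaglandin E synthase gene Ptges (0.06), Or6ae1 (0.07) and the adhesion molecule gene L1cam (0.07), with TCEP minus vehicle differences of -0.32 to -0.41. For Calb1 they were Kcnrg (0.11), Rai2 (0.12), the kinase gene Nuak2 (0.14) and the transcription factor gene Lhx1 (0.15), with differences of -0.40 to -0.68. Neither set held another member. With 6 arrays and 11804 genes such likeness is a description of these arrays alone.

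**Figure D4:**
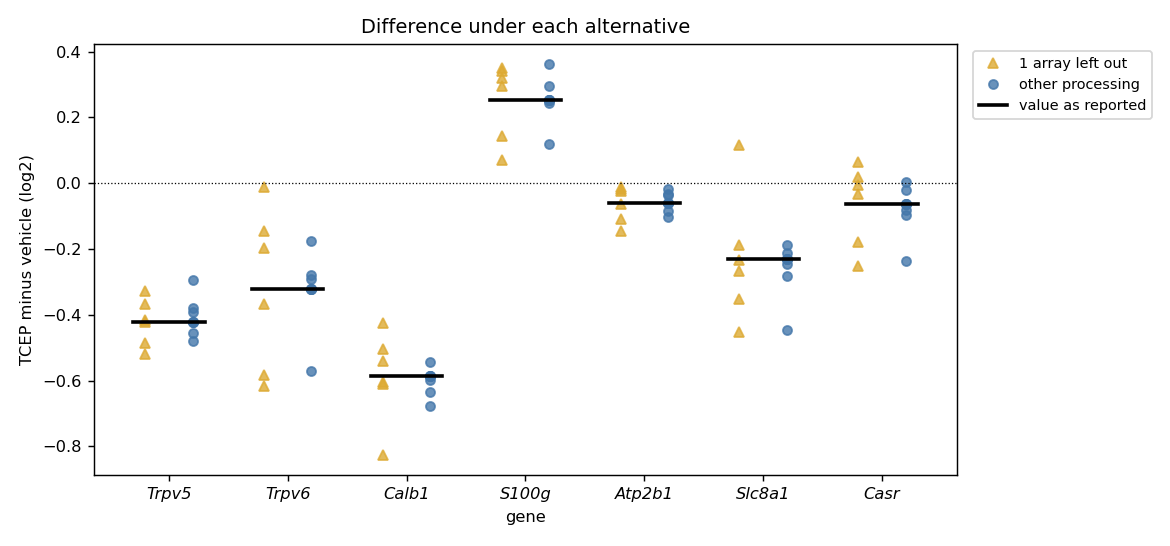
TCEP minus vehicle (y axis, log2) for the 7 tested genes (x axis) as reported (black bars), with 1 array left out (triangles) and under other processing (circles), 15 alternatives in all. Trpv5 stays between -0.52 and -0.30 and Calb1 between -0.83 and -0.42, while Slc8a1 and Casr cross 0. Values with 1 array left out use the brightest probe of each gene.

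Over 15 alternative settings the difference for Trpv5 stayed between -0.52 and -0.30, with an unadjusted p under 0.05 in 15 of 15 and an adjusted p under 0.05 in 0. For Calb1 the range was -0.83 to -0.42, with an unadjusted p under 0.05 in 10 of 15 and an adjusted p under 0.05 in 0. The limma adjusted p ran from 0.285 to 0.813 for Trpv5 and from 0.271 to 0.849 for Calb1.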

How the data were processed

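Per the labels' protocols, total RNA of 6 rats was labelled with Cy3. Per the file headers, the authors used Agilent Feature Extraction 10.7.1.1 (10.7 per the submitters' processing notes), and the deposited processed signal is a background-subtracted, detrended intensity, unscaled between arrays. Flags of 0 or 1 were deposited as other values. The deposited series matrix is the same intensity divided per array by a constant within 0.15% of its 75th percentile (column medians 0.104 to 0.107), on a linear scale without centring. The array design names an older rat build, so GRCr8 served for names and upstream sequences only.

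12 outlier probes were left out, and 27453 probes were named through unversioned accessions. Each gene was read from its brightest probe and tested if every array of 1 group or of both showed it well above background. TCEP was compared with vehicle by limma 3.58.1 in R 4.3.3 (lmFit, eBayes, two-sided, no covariate, 5.93 degrees of freedom), checked on simulated data. Alternatives were quantile normalization, no scaling, normexp, other filters on dim probes, the mean of a gene's probes, the series matrix, the replicate block, array weights and leaving out each array. Python 3.11.15 drew the figures. Named were all members, up to 4 genes per list by unadjusted p and the 5 nearest genes to Trpv5 and Calb1, of which 1 is not reported here. Some further genes of these lists (S100a10, Anxa2, Cyp24a1, Cyp27b1, Pth1r, Kl, Atp2a2, Cldn16 and Cldn19) were named after their values were seen. The members and lists were chosen with earlier results of these data known. The design text calls the samples biological replicates. The number of arrays limits the precision.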

Additional observations from a re-analysis of the deposited data

How the results depend on the processing

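With limma 0 genes passed the adjusted threshold as reported and under each of the 15 settings, and 0 probes passed as reported, with quantile normalization and with the replicate block. Of 241 values recomputed, 11 changed direction and 6 counts moved by over 1.5 times. Not all of the 241 could change. Other filters on dim probes and the replicate block leave a member's own difference as it is. The mean of a gene's probes does so for members with 1 probe. Scaling between arrays cancels in values relative to the distal markers. Without scaling between arrays 1 member, not 2, had groups that did not overlap. With an array left out that count was 2 to 3 while the share over all genes was 23.1% to 28.0%, and with normexp it was 3 with a share of 20.7%. Without vehicle replicate 1 Slc8a1, read from its brightest probe, turned to 0.12 and, relative to the distal markers, to 0.13. Casr turned to 0.0034 with normexp and to 0.02 and 0.07 without vehicle replicate 1 and TCEP replicate 2. With an array left out the difference ranged from -0.25 to 0.065 for Casr and from -0.45 to 0.12 for Slc8a1. Relative to the distal markers, Casr turned to -0.02 and -0.13 without vehicle replicate 3 and TCEP replicate 1, and Atp2b1 to -0.081 without TCEP replicate 2. With no filter on dim probes Slc8a1, Trpv5 and Trpv6 turned to 0.21, 0.020 and 0.12 on that measure, since this adds Pvalb and Kcnj10 to the marker mean. With an array left out it ranged from -0.41 to -0.17 for Trpv5, -0.61 to -0.34 for Calb1, 0.19 to 0.55 for S100g, -0.43 to -0.001 for Trpv6, -0.30 to 0.13 for Slc8a1, -0.081 to 0.18 for Atp2b1 and -0.13 to 0.19 for Casr. The 5 settings in which Calb1 lost its unadjusted p under 0.05 each left out 1 array. Correlations of same-numbered deviations were -0.15, -0.10 and 0.23, and those of unlike-numbered ones ran from -0.33 to 0.37. With 3 arrays per group they cannot decide whether replicate numbers pair the samples. With the replicate block 0 genes and 0 probes passed, and 850 genes, not 983, had an unadjusted p under 0.05. Normexp was run on median spot signals, and gave 1565. Trpv6 and Atp2b4, and Cldn14 on vehicle replicate 3, are limited by signal near background.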
